A study of Mus musculus with 2 samples.

Results

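The genes described here encode the receptors for the colony-stimulating factors and the JAK2-STAT5 route that these receptors use. There are 10 of them among the 35522 features listed for each library, and they were taken by gene symbol, without regard to their values. Of the 10, 6 encode receptor chains (Csf2ra, Csf2rb, Csf2rb2, Il3ra, Csf3r and Csf1r), 3 encode signal carriers (Jak2, Stat5a and Stat5b) and 1 encodes a feedback inhibitor (Cish). Neutrophils were sorted from the bone marrow of Balb/C mice, between 5 and 8 weeks of age, as CD11b-positive cells with high Ly-6G and low or no Ly-6C. All cells were kept in complete RPMI-1640 with 10 ng/ml GM-CSF, so the ligand of the Csf2ra receptor was present in the control as well. The PBS group received PBS for 3 days, and the exosome group received tumor exosomes at 20 μg/ml for 3 days, collected from cancer stem-like spheres of the mouse colon carcinoma line CT26. RNA-seq was done on 1 library per group. No value therefore has a spread between replicates, no test between the treatments was possible, and whether several mice were pooled for a library is not given in the sources used here.

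GM-CSF binds a private alpha chain, encoded by Csf2ra, and signals through the common beta chain, encoded by Csf2rb, which is shared with the receptors for interleukin-3 and interleukin-5. Mice also carry Csf2rb2, a copy whose product serves interleukin-3 with the alpha chain encoded by Il3ra. The kinase JAK2 sits on the beta chain and activates STAT5A and STAT5B, and these transcription factors switch on Cish, whose product damps the receptor. G-CSF, the main growth factor of neutrophils, acts through the homodimeric receptor encoded by Csf3r. CSF-1 and interleukin-34 act through the receptor tyrosine kinase encoded by Csf1r, a receptor best known from monocytes and macrophages.

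Csf2rb and Csf2rb2 lie side by side on chromosome 15 and are so alike that their transcripts are shown first. In build GRCm38, Csf2rb2 (ENSMUSG00000071714) runs from 78282507 to 78305721 on the minus strand and Csf2rb (ENSMUSG00000071713) from 78325752 to 78353847 on the plus strand. Their coding sequences in GENCODE M21 were identical at 2503 of 2628 aligned positions (95.2%), with a longest identical run of 242 bases. The stretch of 90 coding bases with the most differences held 16 of them, in capitals, and starts at coding base 311 of Csf2rb2 and 308 of Csf2rb.
Csf2rb2: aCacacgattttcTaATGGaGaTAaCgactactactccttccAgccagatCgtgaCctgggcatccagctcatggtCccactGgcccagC
Csf2rb: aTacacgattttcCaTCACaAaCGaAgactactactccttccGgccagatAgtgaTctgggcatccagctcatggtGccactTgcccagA

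Of all stretches of 50 bases in the longest Csf2rb2 transcript, 19.0% also occurred in a Csf2rb transcript, and of all stretches of 100 bases 7.2% did. In the other direction the shares were 18.4% and 7.0%. Stat5a and Stat5b, which are neighbours on chromosome 11 with 346 bases between them in RefSeq, were identical at 90.8% of aligned coding positions, and 10.8% of the 50-base stretches of Stat5a occurred in Stat5b. The treatment of reads that fit more than 1 gene is not stated, so the values of both pairs are uncertain to the extent that such reads were shared.

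Promoter stretches are printed for the STAT5 target Cish and for receptor genes in which a motif was matched, whose levels follow below. RefSeq windows (build GRCm38.p6, 250 bases before to 50 after the annotated start) were at hand for 8 of the 10 genes, all but Csf2rb and Csf1r. The palindromic letters TTCNNNGAA, the core bound by STAT5, were found in 2 of the 8, Cish and Csf2rb2, and in 8.3% of all 32851 windows. The letters GAGGAAG, a core bound by the myeloid factor PU.1, were searched on both strands and were found in 3 of the 8, Csf2ra, Csf2rb2 and Csf3r, against 13.6% of all windows. Capitals mark these letters. The stretches are chr9:107296599-107296686 (plus strand) for Cish, chr15:78305694-78305821 (minus) for Csf2rb2, chr19:61228391-61228478 (minus) for Csf2ra and chr4:126024559-126024686 (plus) for Csf3r, and each ends 28 bases past the start.
Cish: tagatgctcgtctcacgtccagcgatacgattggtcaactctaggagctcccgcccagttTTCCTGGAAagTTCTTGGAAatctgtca
Csf2rb2: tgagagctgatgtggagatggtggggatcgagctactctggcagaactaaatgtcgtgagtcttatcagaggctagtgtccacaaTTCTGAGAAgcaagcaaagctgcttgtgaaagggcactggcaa
Csf2ra: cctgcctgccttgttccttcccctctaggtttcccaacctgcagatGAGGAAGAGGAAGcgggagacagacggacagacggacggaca
Csf3r: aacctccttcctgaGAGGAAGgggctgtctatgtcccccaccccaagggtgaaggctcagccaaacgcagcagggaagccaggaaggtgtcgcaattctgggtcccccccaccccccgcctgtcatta

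Cish held 2 STAT5 cores, 11 bases apart from first base to first base, beginning at the annotated start. Csf2rb2 held 1 that began 15 bases before it. In Csf2ra the 2 GAGGAAG matches overlapped by 1 base, and those of Csf2rb2 lie outside the stretch printed. A match is a match of letters only, and binding was not measured.

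Levels are RPKM, read numbers divided by the length of the exons and by the mapped reads of the library, so they can be compared between genes. The depth, estimated from the smallest values, was about 66000000 mapped reads for PBS and 79100000 for exosome. Intervals given with a log2 ratio are 95% exact Clopper-Pearson intervals of the estimated reads, and they cover counting error alone. Genes were kept at 0.25 RPKM or more in each library, and a change was called when it reached 2-fold. Of 9698 genes kept, 31.5% were called higher with exosomes and 5.62% lower. The median log2 ratio of all genes kept was 0.53. This shift depended on the level and was close to 0 among highly expressed genes, so the changes of the 10 genes are also given under 4 other scalings of the libraries, and for other named genes a call is marked where a scaling ends it. Fewer cells of a type and less RNA per cell cannot be told apart in such bulk samples.

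Of the 10 genes 9 were kept, and Cish was below the filter. Exosome treatment was accompanied by an unequal change of the receptor genes. Csf2rb2, Csf1r and Csf2rb were at least 2-fold higher, Csf3r was at least 2-fold lower, and the 3 signal genes stayed within 2-fold. The 3 genes called higher were 33.3% of the 9 kept, near the 31.5% of all genes, and the 1 called lower was 11.1% against 5.62%. The median log2 ratio of the 9 was 0.25. With the median of all genes set to 0, or after subtraction of a trimmed mean of the log ratios, Csf2rb2 alone was called higher and both Csf3r and Csf2ra were called lower.

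**Figure D1:**
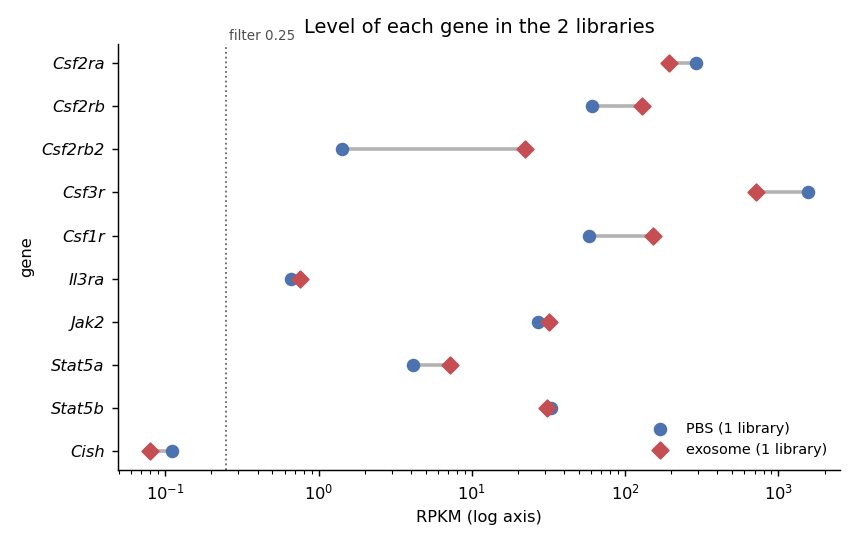
RPKM of each of the 10 genes (log axis) in the PBS library (blue circles) and the exosome library (red diamonds), 1 library each, joined by a grey bar, with the filter of 0.25 dotted. Csf3r is the highest in both libraries, Csf2rb2 has the longest bar (1.42 to 22.17), and Cish lies left of the filter in both.

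Csf3r, on chromosome 4 from 126024550 to 126044440 (plus strand), was the most abundant of the 10 genes in both libraries. It stood at 1549 RPKM in PBS, rank 15 of all features, and at 715 RPKM with exosomes, rank 34. This was a 2.17-fold decrease (log2 ratio -1.11, counting interval -1.12 to -1.11). Csf3r was called lower under each of 4 other scalings, at log2 ratios from -1.66 to -1.07. The level of the G-CSF receptor transcript with exosomes was thus still above that of every other member in either library.

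Csf1r, on chromosome 18 from 61100598 to 61132149 (plus strand), was the other receptor that works without a separate partner chain. Its level was 58.1 RPKM in PBS and 153 RPKM with exosomes, a 2.63-fold increase (log2 ratio 1.39, counting interval 1.37 to 1.42). Level-dependent centring, which sets the running median of the genes of nearest level to 0, left it called higher. Median centring (log2 ratio 0.87) and the trimmed mean (0.85) took it below 2-fold, with the sign kept. The order of the receptors changed with this. In PBS Csf1r stood just below Csf2rb, and with exosomes it stood above it.

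The alpha chain gene of the GM-CSF receptor, Csf2ra (chromosome 19, 61223957 to 61228429, minus strand), was second to Csf3r in both libraries. It had 292 RPKM in PBS and 194 RPKM with exosomes. The log2 ratio of -0.59 (counting interval -0.61 to -0.57) was short of 2-fold, and it was -1.11 under median centring and -1.13 with the trimmed mean removed. The shared beta chain gene Csf2rb went the other way. It had 60.9 RPKM in PBS and 129 RPKM with exosomes, a 2.12-fold increase (log2 ratio 1.08, counting interval 1.06 to 1.11), which fell to 0.56 and 0.54 under the same 2 scalings.

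The largest change of the 10 was that of Csf2rb2, the copy of the beta chain gene that serves interleukin-3. It rose from 1.42 to 22.2 RPKM, a 15.6-fold increase (log2 ratio 3.96, counting interval 3.83 to 4.11, about 444 and 8314 reads). Of all genes kept, 99.6% had a lower log2 ratio. Under the 4 other scalings the log2 ratio of Csf2rb2 was 3.25 to 4.01. Because Csf2rb2 and Csf2rb share sequence, their ratio was followed as well. In PBS there was 1 Csf2rb2 RPKM unit for 42.9 of Csf2rb, and with exosomes 1 for 5.82, so the ratio rose 7.37-fold (log2 change 2.88). The log2 change of this ratio was 2.18 with level-dependent centring and 2.19 with a pseudocount of 1. Il3ra (chromosome 14, 14346275 to 14356011, plus strand), the alpha chain gene that pairs with Csf2rb2, remained low. It had 0.66 RPKM in PBS and 0.76 RPKM with exosomes, and the counting interval of its log2 ratio (-0.18 to 0.58) included 0. Its sign turned under 3 of the 4 other scalings, with values down to -0.83, so a change of Il3ra was not detectable.

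**Figure D2:**
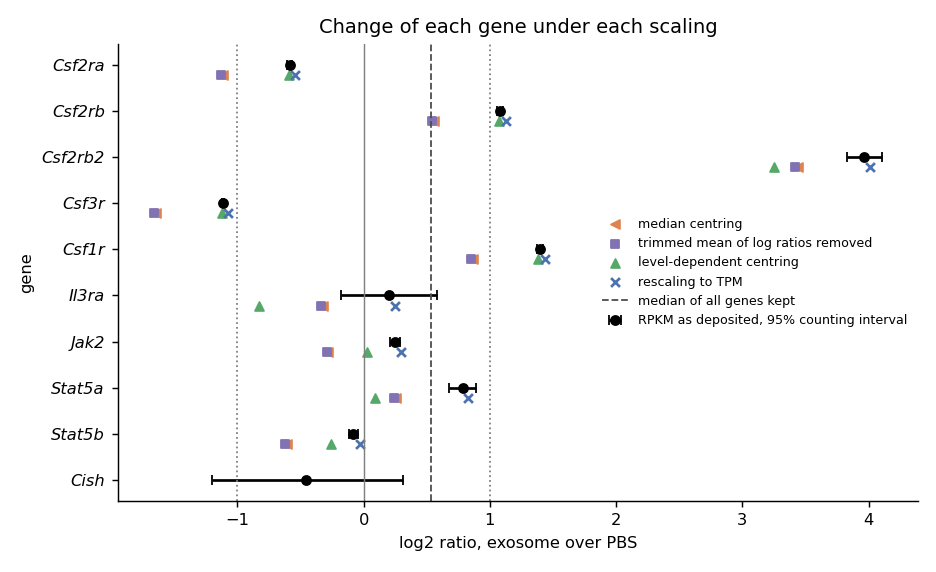
Log2 ratio of exosome over PBS for the 10 genes, as deposited (black circles with 95% counting intervals) and under 4 other scalings (coloured marks below), with 2-fold limits dotted and the median of all genes kept (0.53) dashed. Csf2rb2 stays above and Csf3r below the 2-fold limits under every scaling drawn, Csf1r and Csf2rb cross the upper limit, and Il3ra and Jak2 lie on both sides of 0. Cish was below the filter and has no other scaling.

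A ratio within a library is not altered by a single factor between libraries, though level-dependent centring can move it. The receptor genes were therefore also set against each other. Their summed RPKM was 1961 in PBS and 1214 with exosomes, a ratio of 0.619. Csf3r made up 78.95% of the sum in PBS and 58.9% with exosomes. The share of Csf1r went from 2.96% to 12.57%, that of Csf2rb from 3.11% to 10.63% and that of Csf2rb2 from 0.07% to 1.83%. Csf2ra held a nearly equal share, at 14.88% and 16.01%. Without Csf3r, the sum of the other 5 genes was 413 RPKM in PBS and 499 RPKM with exosomes.

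**Figure D3:**
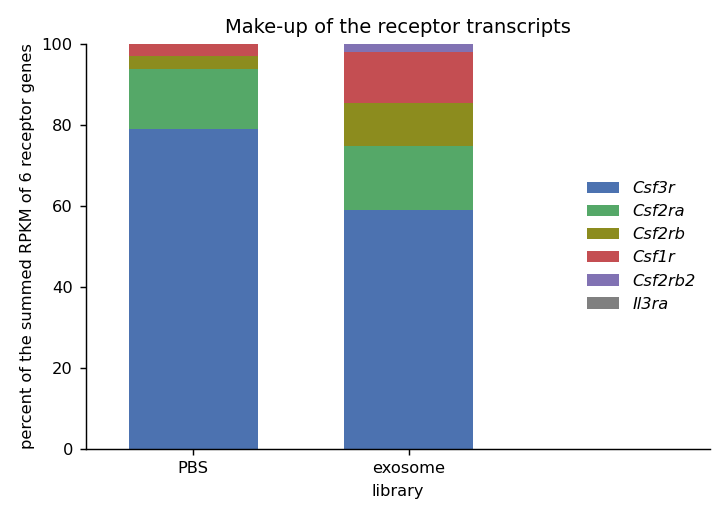
Share of each of 6 receptor genes in their summed RPKM (percent), 1 bar per library. The Csf3r part shrinks from 78.95% in PBS to 58.9% with exosomes, and the Csf1r and Csf2rb parts widen to 12.57% and 10.63%.

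The balance of the alpha and beta chain transcripts of the GM-CSF receptor was shifted. In PBS there were 4.79 RPKM of Csf2ra for each of Csf2rb, and with exosomes there were 1.51. The ratio of Csf2rb to Csf2ra thus rose 3.18-fold. Csf2rb2 shares sequence with Csf2rb, but its product serves interleukin-3. With its RPKM added to that of Csf2rb, the sum was 0.214 of Csf2ra in PBS and 0.778 with exosomes, a 3.64-fold rise of the ratio. The ratio of Csf1r to Csf3r rose 5.69-fold, from 0.0375 to 0.213. That of Csf3r to Csf2ra fell from 5.31 to 3.68.

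The genes that carry the signal differed less. Jak2 (chromosome 19, 29251828 to 29313080, plus strand) had 27.0 RPKM in PBS and 32.1 RPKM with exosomes, a log2 ratio of 0.25 (counting interval 0.21 to 0.29) that became -0.28 under median centring. Stat5b (chromosome 11, 100780731 to 100850724, minus strand) was the main STAT5 transcript, with 32.7 RPKM in PBS and 30.9 RPKM with exosomes (log2 ratio -0.08, -0.12 to -0.04). Stat5a (chromosome 11, 100859351 to 100885169, plus strand) had 4.15 RPKM in PBS and 7.15 RPKM with exosomes (log2 ratio 0.78, 0.68 to 0.89). None of the 3 reached 2-fold under any of the 4 other scalings. For Stat5a the running median at its own level was 0.69, and the log2 ratio after level-dependent centring was 0.09. There were 7.89 RPKM of Stat5b for each of Stat5a in PBS and 4.33 with exosomes, a log2 change of -0.87 that was -0.35 with level-dependent centring. The STAT5 genes together stood at 36.9 and 38.1 RPKM.

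**Figure D4:**
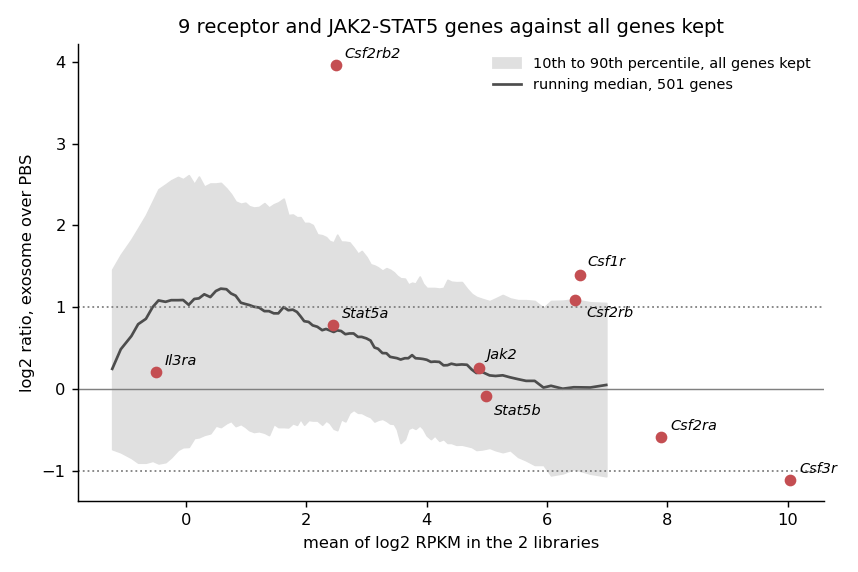
Log2 ratio of exosome over PBS against the mean log2 RPKM for the 9 genes kept (red), over the running median (line) and the 10th to 90th percentile (grey) of all genes kept, which end where a full window ends. Csf2rb2 lies far above the grey band and Csf1r above it, Csf2rb lies at its upper edge, and Stat5a and Jak2 lie close to the running median.

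Cish (chromosome 9, 107296026 to 107302784, plus strand), the STAT5 target with 2 motif cores printed above, was hardly expressed in either library. GM-CSF was in the medium of both cultures, and the activity of STAT5 was not tested. Cish had 0.11 RPKM in PBS and 0.08 RPKM with exosomes, which correspond to about 34 and 30 reads. The log2 ratio of -0.46 had a counting interval of -1.20 to 0.31 that included 0, so no difference was detectable at this depth. Socs2, another STAT5 target that encodes an inhibitor of cytokine receptors, was at a similar level, with 0.11 and 0.1 RPKM. Other genes known as STAT5 targets differed widely in level, from Bcl2 at 0.27 RPKM to Mcl1 at 369 RPKM in PBS. Pim1, which encodes a survival kinase, had 104 RPKM in PBS and 120 RPKM with exosomes. Among 17 of 18 such targets that were kept, 2 were called higher and 1 lower, with a median log2 ratio of 0.21. For all genes kept the shares were 31.5% and 5.62%, and the median was 0.53. Spred1, which encodes a brake on RAS-MAPK signalling, rose from 1.76 to 7.57 RPKM and Pim2 rose from 6.68 to 21.8 RPKM, while Osm, the gene of the cytokine oncostatin M, fell from 92.0 to 32.7 RPKM.

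The wider pathway was described with lists of genes grouped by function. Of 95 kept genes beside the members, 18 (18.9%) were called higher and 2 (2.1%) lower, both below the shares of all genes, 31.5% and 5.62%. Their median log2 ratio was 0.32, against 0.53 for all genes. Under median centring 11 were called higher and 12 lower. The shares of all genes under that centring are not given here, and the 31.5% and 5.62% do not apply to it. These counts describe the libraries, and no test of the lists was made.

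Of the 6 ligand genes only Csf1 and Csf3 were kept. Csf3, which encodes G-CSF, the ligand of the Csf3r product, rose from 4.07 to 18.1 RPKM while its receptor gene fell. Csf1, which encodes a ligand of the Csf1r product, fell 2.03-fold, from 17.7 to 8.69 RPKM, while its receptor gene rose. The log2 ratio of Csf1 was -1.02 and, after rescaling to TPM, -0.98, just short of 2-fold. Csf2, which encodes GM-CSF, was at 0.04 and 0.09 RPKM. Il3 and Il5 were listed at 0 in both libraries, and Il34 was listed at 0 in PBS and at 0.00688 RPKM with exosomes.

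Among the other cytokine and growth factor receptors, 20 of 32 were kept, 4 were called higher and none lower, with a median log2 ratio of 0.30. The shares of all genes kept, against which the counts of this paragraph stand, were 31.5% higher and 5.62% lower. Il2rg, the gene of the common gamma chain, rose from 17.5 to 59.7 RPKM. Il10ra and Il15ra rose 3.51-fold and 3.86-fold, and Ifngr1 rose 2.39-fold. The call of Ifngr1 was lost under median centring (log2 ratio 0.73) and the trimmed mean (0.72), and that of Il15ra with level-dependent centring (0.86). Il5ra, whose product would pair with the Csf2rb chain, was below the filter, at 0.16 RPKM in PBS and 0.09 RPKM with exosomes. The other JAK and STAT genes were all kept, and 3 of 8 were called higher. Jak3, whose product works with the common gamma chain, rose from 2.37 to 11.8 RPKM, Stat4 rose from 0.35 to 1.80 RPKM, and Tyk2 was just over the limit, at 6.22 and 12.6 RPKM. Tyk2 was no longer called under 3 of the 4 other scalings, with log2 ratios of 0.47 to 0.52.

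Inhibitors of the receptors were counted in the same way, beside 31.5% of all genes kept that were called higher and 5.62% called lower. Of 6 kept SOCS genes, 2 were called higher. Socs3, whose product binds the G-CSF receptor, rose from 22.4 to 73.3 RPKM and Socs6 rose from 1.40 to 3.65 RPKM, whereas Socs1 had 3.09 and 3.86 RPKM. Socs6 was below 2-fold under 3 of the 4 other scalings (log2 ratios of 0.40 to 0.86), and Socs3 was called under all 4. Of 18 other negative regulators, 5 were called higher and none lower. Usp18, which encodes an inhibitor of interferon receptor signalling, rose from 5.33 to 36.4 RPKM, and Dok2, the gene of an adaptor that restrains myeloid growth, rose from 2.85 to 18.2 RPKM. Of 24 adaptor and kinase genes all were kept, 1 was called higher and none lower, and their median log2 ratio was 0.25.

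**Figure D5:**
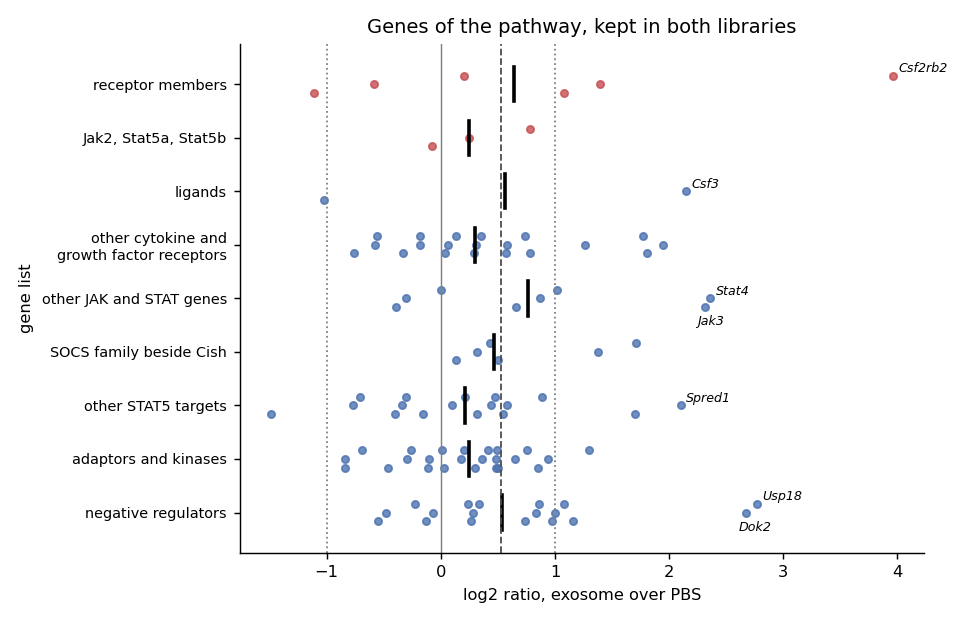
Log2 ratio of exosome over PBS of each kept gene of the pathway, by list (members in red, other genes in blue), with the median of each list as a black bar, the 2-fold limits dotted and the median of all genes kept (0.53) dashed. Names are given at 4-fold or more, which 6 genes beside the members reached, and all of these were higher with exosomes. The share of all genes that reached 4-fold is not given here.

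Markers of the cells that a sort could hold were read in the same libraries. Of 14 neutrophil markers, 11 were called lower and 1 higher, beside 5.62% and 31.5% of all genes kept. The 1 called higher was Fpr1, at 384 RPKM in PBS and 1473 RPKM with exosomes. Their summed RPKM was 84026 in PBS and 31662 with exosomes. Most of it came from S100a9 (43059 and 13834) and S100a8 (32823 and 14382). Csf3r moved in the direction of that list. Of 16 monocyte and macrophage markers, 8 were kept, 4 were called higher and 1 lower. The 1 called lower was Ly6c2, at 184 RPKM in PBS and 37.1 RPKM with exosomes. None of the 16 was listed at 0. Their sum was 6384 in PBS and 14779 with exosomes, of which Lyz2 alone was 6092 and 14430. Csf1r moved in the direction of this list. Emr1, the older name of the gene for F4/80, rose from 20.9 to 152 RPKM. Lyz2, Ly6c2, Cd68 and Emr1 were then left out, a choice made after the values were seen. The other 12 markers summed to 2.13 RPKM in PBS and 14.9 RPKM with exosomes. None of the 12 was above 0.5 RPKM in PBS, and the highest with exosomes, C1qc, reached 3.79 RPKM. By any amount and without the filter, 10 of the 12 were higher with exosomes. The share of all genes higher by any amount is not given here, so this count has no background. The part of such cells in the change of Csf1r, Csf2rb2 or Csf3r was not tested.

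Markers of other cells were mostly low or lower with exosomes. The summed RPKM in PBS and with exosomes was 76.3 and 53.7 for 10 dendritic cell markers, 11.0 and 5.70 for 6 eosinophil markers, 2.30 and 2.4 for 6 mast cell and basophil markers, and 17.2 and 22.7 for 9 progenitor markers. It was 128 and 52.3 for 8 lymphocyte markers. Of the 4 kept, 1 was called lower, beside 5.62% of all genes kept. This was Cd3d, at 56.4 and 7.02 RPKM, and Cd79a had 38.3 and 24.4 RPKM. Markers of red cells (5 genes, 1.57 and 0.15) and of carcinoma cells (7 genes, 0.61 and 0.21) were close to 0, and Krt8 and Cldn4 were listed at 0 in both libraries.

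The genes most like Csf1r and Csf3r were found by the distance between log2 RPKM values over the 2 libraries. Among the nearest to Csf1r were Rpl11 (distance 0.101) and Birc3 (0.123). Nearest to Csf3r were Sepx1 (0.227), Srgn (0.429) and H2-D1 (0.542). With 2 points a gene, many genes can share such a pattern.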

How the data were processed

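Reads of mRNA libraries were trimmed by base quality and analysed in CLC Genomics Workbench, and the authors deposited 1 RPKM value per feature and library. The submitters' processing notes name mm10. The gene annotation, strand setting, treatment of multiply mapped reads and any scaling between libraries are not given in the sources used here. Values from 0.01 were rounded to 0.01. RPKM are not counts, so no count model was used, and with 1 library per group no test was made. 25 features carried a spreadsheet date number as their name and were counted but not named.

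Ratios were computed without a pseudocount, after the RPKM filter of at least 0.25 in both libraries, which is the rule used in the study. Mapped reads were estimated as the commonest value of 1 read over RPKM (below 0.01) and the longest GENCODE M21 transcript (225 of 918 features for PBS, 270 of 1064 for exosome). That transcript need not be the exon model of the deposited values. Without lengths, the ratio of the depths was 1.199. Read numbers served for intervals only. The depth, ratio and interval steps were tested on simulated reads drawn with the same transcript lengths. The simulation held no shift of all genes, no reads shared between genes and no other exon model. It could not test the effect of these. Coding sequences were aligned with Biopython 1.88, and promoters are from RefSeq (GRCm38.p6).

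Named were all 10 genes, pathway genes changed at least 4-fold, Csf1, Csf2, Csf3, Il5ra, Socs1, Socs2, Socs3 and Pim1, and the 3 genes nearest to Csf1r and Csf3r. A few genes that these rules and lists take in are not reported here. Other genes were named after their values were seen. The members and lists were chosen with earlier results of these data known. Alternatives were median centring, a trimmed mean (30% of ratios and 5% of levels left out at each end), level-dependent centring, TPM, other filters, pseudocounts of 0.25 and 1, and a 4-fold limit.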

Additional observations from a re-analysis of the deposited data

How the results depend on the processing

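Of 157 values recomputed under another setting, 100 stayed within their limits (the counting interval for a gene, 1.5 times for a count, 0.1 for a median), 57 moved and 0 called changes turned sign. Many of the 100 could not move. A single factor between libraries leaves a ratio of 2 genes as it was, and another filter leaves the ratio of a gene as it was. The 100 are therefore no measure of stability. The number of the 10 genes called higher, 3 as deposited, was 1 under median centring, 1 with the trimmed mean removed and 1 at a 4-fold limit, and the number called lower, 1 as deposited, was 2, 2 and 0. Their median log2 ratio of 0.25 became -0.28 under median centring, -0.29 with the trimmed mean, 0.03 with level-dependent centring and 0.52 at an RPKM of at least 1, which leaves out Il3ra. Of the other pathway genes, 18 higher and 2 lower became 11 and 12 under both the median and the trimmed mean, and 6 and 0 at 4-fold. The shares of all genes called under each other setting are not given here, so these counts cannot be set against 31.5% and 5.62%. The number lower was 10 with level-dependent centring, 1 with TPM, 6 without a filter, where more genes enter, and 1 with a pseudocount of 1. With pseudocounts of 0.25 and 1 the log2 ratio of Csf2rb2 was 3.75 and 3.26. For the centrings, the cause of the moves is the shift of all genes by 0.53 or, by level, from about 0 to about 1. No paired analysis was possible because each group has 1 library. A spread between cultures is not known for any value, and rounding to 0.01 limits genes as low as Cish.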

Other observations

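The neighbours of the beta chain genes on chromosome 15 are described here, since they enter no comparison above. Ncf4, which encodes the p40phox subunit of the phagocyte oxidase and lies next to Csf2rb2, rose from 243 to 502 RPKM (log2 ratio 1.04). On the far side of Csf2rb, Tst had 3.24 and 3.46 RPKM and Mpst had 3.49 and 5.19 RPKM, both within 2-fold. As deposited, Ncf4, Csf2rb2 and Csf2rb were each at least 2-fold higher with exosomes, as were 31.5% of all genes kept. Under median centring the log2 ratios were 0.52 for Ncf4 and 0.56 for Csf2rb, so that Csf2rb2 (3.44) was the only 1 of the 3 still called higher. On chromosome 11, Stat3, which follows Stat5a, had 64.9 and 65.0 RPKM.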
